A study of Homo sapiens with 4 samples.

Results

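SkBr3 is a HER2-positive human breast cancer cell line, and the comparison described here sets 1 lapatinib-resistant clone of this line, called SkBr3/Lap below, against the parental cells. It uses 2 of the 4 samples of the series, each with 1 array, chosen by the labels of cell line and treatment, and the other 2 samples are the same pair for BT474, another HER2-positive line. The parental cells were labelled as given vehicle. The resistant cells were labelled as given lapatinib, and the labels describe selection in increasing concentrations of the drug up to 1 μM, with all cells grown in DMEM/F12 medium. The resistant culture is a single clone, so a change that came with the clone, a change that came with resistance and a change due to lapatinib in the medium cannot be told apart. The number of this clone is not settled, since the source label calls it clone 3 while the deposited array and the published study call it number 6.

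HER2, encoded by ERBB2, is a receptor tyrosine kinase whose gene lies in an amplified region in these cells, and it drives growth by pairing with the related receptors EGFR and HER3. Lapatinib enters the ATP pocket of EGFR and HER2 and shuts off the ERK and PI3K-AKT signals below them. Cells that survive such a block are known to turn to other receptors, to drug pumps or to survival pathways. The study asked about NF-κB, a family of transcription factors that is held in the cytoplasm by IκB proteins until the IKK kinases mark these for destruction, after which it switches on cytokines, adhesion molecules, survival genes and its own inhibitors. SkBr3 is otherwise a luminal line, with the keratins and transcription factors of milk-duct lining cells rather than those of the basal layer beneath them.

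Each array held 43376 spots for 41000 probes, and a signal here is the processed signal of a spot, an intensity on a linear scale after the scanner software subtracted the background. In SkBr3 the 75th percentile over probes lay at a signal of 1115 and in SkBr3/Lap at 2074, so a level is given as the log2 of a signal over that percentile of its own array, and a log2 fold change is the level in SkBr3/Lap minus the level in SkBr3. The software marked 66.6% of probes in SkBr3 and 73.7% in SkBr3/Lap as well above background, with the lowest signal so marked at 13.3 in SkBr3/Lap and slightly higher in SkBr3, and no spot was saturated. Where a probe was so marked on only 1 of the 2 arrays, the dim side was set to that lowest signal if it lay below it, and the fold change is then a limit, written "at least". The SkBr3/Lap array was on a different slide and had a different scan date from the other 3 arrays of the series, which shared both. Slide, scan date and resistance therefore cannot be told apart in this comparison. Spots of probes printed 10 times spread by a median SD of 0.07 and 0.08 on the log2 scale, which is the error within an array only. Among such probes with a signal of at least 100, the largest SD was 2.01 in SkBr3 and 0.28 in SkBr3/Lap. With 1 array a side there is no replicate, hence no test, and every difference below is a difference between these 2 arrays.

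The labels of both arrays were checked against genes that differ between the lines. CDH1, the epithelial cadherin, had signals of 11.9 in SkBr3 and 4.66 in SkBr3/Lap, not well above background on either array, against 44710 and 56836 in BT474 and its resistant clone. PGR, the progesterone receptor, was likewise below background on both SkBr3 arrays and at 5955 or higher on the BT474 arrays. Over 25063 probes well above background on all 4 arrays, Pearson's r between SkBr3 and SkBr3/Lap was 0.938, while r between either of them and a BT474 array was between 0.863 and 0.902, as a description across probes of shared design. The BT474 pair had r = 0.969, and the SD of the log2 differences was 1.09 in the SkBr3 pair and 0.73 in the BT474 pair.

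Many genes differed strongly between parental and resistant SkBr3 cells, in both directions. Of 23539 probes with a signal of at least 100 on either array, 3095 (13.1%) were higher in SkBr3/Lap by 2-fold or more and 3129 (13.3%) were lower by as much, with a median log2 fold change of -0.06. Scaling each array to its median instead shifted the median log2 fold change to 0.10 and turned the split into 3758 higher and 2515 lower. The named probes stood for 11305 genes, each taken from its brightest probe (highest mean log2 signal over both arrays), of which 1594 (14.1%) were higher and 1414 (12.5%) lower. These shares are the background for the counts in gene groups below. A signal of 100 was reached on both arrays by 9979 genes, of which 954 were higher and 1116 lower. A further 1027 genes passed through SkBr3/Lap alone, 640 of them higher, and 299 through SkBr3 alone, 298 of them lower. Genes that passed through 1 array alone are dim on the other by that choice, so their number is given beside the groups that hold many of them. At 16-fold or more, 215 genes were higher and 163 lower, and at 64-fold or more 53 genes were on each side. Of 786 called genes with several kept probes, 752 had all probes on the same side of 0 and 566 had all of them past 2-fold.

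**Figure D1:**
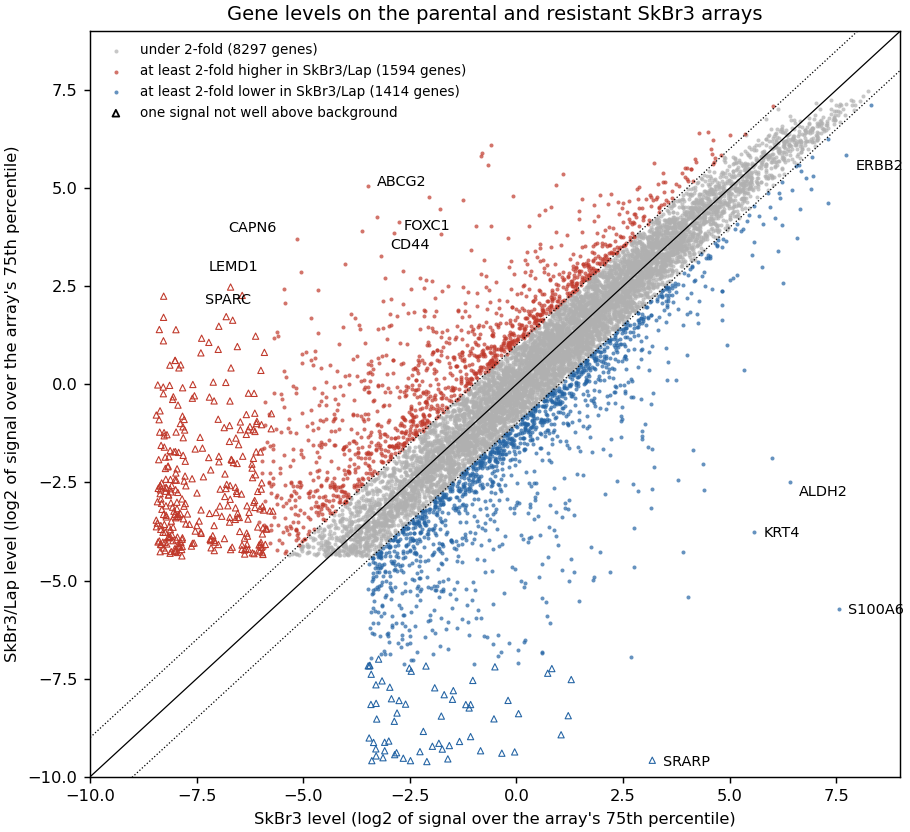
Level of each of 11305 genes in SkBr3 (x axis) and SkBr3/Lap (y axis), both as log2 of the signal over the array's 75th percentile, with 1594 genes past 2-fold upward in red, 1414 past 2-fold downward in blue and limits as open triangles. The solid line marks equal levels and the dotted lines 2-fold, and ABCG2, CAPN6 and CD44 stand far above the lines while S100A6, ALDH2 and KRT4 stand far below.

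The largest measured rise was that of CAPN6, a calpain-family protein without protease activity, with signals of 31.5 in SkBr3 and 26928 in SkBr3/Lap and a log2 fold change of 8.84. ABCG2, a membrane pump that expels many drugs from cells, followed with 99.1 and 69052, which is 375-fold higher (8.55 on the log2 scale). Both signals of these genes were well above background. WNT10A, a secreted Wnt ligand, rose by 7.90 and LAMC1, the laminin γ1 chain of basement membranes, by 7.88 on the same scale. IGF2BP3, an RNA-binding protein of fetal tissues, went from 90.4 to 31371, and SLC1A3, a glutamate and aspartate transporter, from 116 to 39824. TNFRSF11B, the decoy receptor osteoprotegerin, went from 44.1 to 10960, and FOXC1, a transcription factor of mesenchymal and basal cells, from 153 to 29809. The others among the 15 largest measured rises were SPON2, DYSF, MOXD1, AFAP1L1, GAL, NAV3 and VCX3A, at log2 fold changes between 6.70 and 7.48. VCX3A belongs to a family of near-identical testis-expressed genes that its probe may not tell apart, and another probe of AFAP1L1 gave only a limit of at least 2.95.

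A further set of genes was below background in the parental cells and bright in the clone, so that only a lower limit can be given. LEMD1, a cancer-testis antigen, stood at 11574 in SkBr3/Lap, at least 389-fold higher than in SkBr3. ALOX5, the lipoxygenase that begins leukotriene synthesis, stood at 9988, and HSD3B1, a steroid-synthesis enzyme, at 9849. SPARC, a matrix glycoprotein, and MSN, the membrane-to-actin linker moesin, were at 6865 and 6778, with SkBr3 signals of 9.95 and 3.59 that lay under the background mark. FADS1, SRGN, SCD5, HTRA1 and AMOT completed this set, at limits from at least 163-fold to at least 216-fold.

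The largest fall was that of S100A6, a calcium-binding protein, with signals of 211357 in SkBr3 and 39.3 in SkBr3/Lap. Its log2 fold change was -13.29, and it rests on 1 probe. ALDH2, the mitochondrial enzyme that clears acetaldehyde, fell from 94963 to 369.8, and KRT4, a keratin of stratified lining epithelia, from 53204 to 154. All 3 genes were still well above background in the clone. CA12, a membrane carbonic anhydrase, fell from 18276 to 48.5 and CTNND2, a δ-catenin, from 7143 to 16.8. TFF3, a secreted trefoil peptide of luminal cells, fell from 5071 to 75.6, a log2 fold change of -6.96, with -7.88 from another of its probes and only a limit of -4.36 from a dim one. The remaining measured falls among the 15 largest, between -8.18 and -6.86, were BCAS1, SERHL2, SPTSSB, PITX1, LGALS8, PON3, TRIP6, NAAA and PGM5. Genes that dropped under the background mark in the clone were led by SRARP, a gene known from steroid-receptor-positive breast cells, at 10149 in SkBr3 and at least 1420-fold lower in SkBr3/Lap. WNT5A, THRSP, OLFM4, MZB1, CTSZ, TSC22D3 and SCGB2A2 were among those that followed, with limits from -8.57 to -6.94 on the log2 scale.

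The drug's own targets moved in opposite directions. ERBB2 had signals of 238524 in SkBr3 and 118706 in SkBr3/Lap. After scaling this was 3.74-fold lower (-1.90 on the log2 scale), so it was lower in the clone but far above background on both arrays. Its value lay between -1.96 and -1.46 over the alternatives, the smaller figure after normexp correction with quantile normalization. EGFR stood at 2767 and 12836, higher in SkBr3/Lap by 1.32 on the log2 scale. ERBB3, the partner that links HER2 to PI3K, was at 4173 and 7029.9, a difference of -0.14 that did not reach 2-fold, and ERBB4 was only just above the filter in SkBr3 (106) and below background in the clone (2.69). Of the genes next to ERBB2 in the amplified region, GRB7, an adaptor protein, was lower by 2.29-fold and PNMT, an adrenaline-synthesis enzyme, went from 368 to 31. MIEN1, PGAP3, STARD3, MED1, TCAP and ORMDL3 were between -0.77 and 0.11, all under 2-fold. In the whole list of 16 genes, 7 were lower and 2 higher, and the median log2 fold change was -0.71 against -0.04 over all genes. The 2 that were higher, EGFR and ERRFI1, are a receptor and a protein that binds and inhibits active EGFR, the latter at 4120.4 and 30253. Besides those given above, the 7 lower genes were LRIG1, CBL and PPP1R1B.

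Among the ligands of these receptors, HBEGF, which activates EGFR and HER4, went from 21.2 to 706, and EPGN, an EGFR ligand, from 21.3 to 358. AREG, EGF and BTC went the other way, at log2 fold changes of -2.16, -2.42 and -2.73. Only these 5 of 10 listed ligands with a probe reached a signal of 100 on either array. HBEGF and EPGN did so in SkBr3/Lap alone, 1 of the lower ligands did so in SkBr3 alone, and the other 2 on both arrays. Below the receptors, 24 of 30 listed ERK feedback and early response genes reached a signal of 100 on either array. Of the other 6, ETV1, ETV5, EGR2 and EGR3 were not well above background on either array. Of the 18 that reached it on both arrays, 6 were higher and 1 lower. Over all 24, 8 were higher and 3 lower, with a median of 0.41. The higher ones included PHLDA1 (60.3 and 2614), whose 4 probes spanned 0.26 to 4.54 on the log2 scale, and the ERK or stress kinase phosphatases DUSP5 (2.46), DUSP1 (1.91) and DUSP6 (1.29). FOS and JUN, which together form AP-1, were higher by 2.05 and 1.37 as well. The lower ones were EGR1, an immediate early factor that went from 1374 to 362, SPRY4 and FOSB. CCND1, the G1 cyclin commonly lost when HER2 is blocked, was at 4117 and 5100.5, a difference of -0.59 that did not reach 2-fold.

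Other receptor tyrosine kinases were measured as well. MET, the receptor of hepatocyte growth factor, went from 2295 to 24192, a log2 fold change of 2.50. IGF1R rose by 1.61 to a signal of 3557, and INSR by 1.56, while CSF1R, a receptor best known from macrophages, went from 5913 to 42225. ROR1, an orphan receptor that binds WNT5A, was below background in SkBr3 and at 884 in the clone, at least 29.7-fold higher. In contrast EPHB6, an ephrin receptor without kinase activity, fell from 1284 to 61.9. AXL, often named in lapatinib resistance, was at 96.8 and 149, a log2 difference of -0.27. Of the 18 receptors in the list, 7 were higher, 2 lower and 9 under 2-fold, with a median of 0.08.

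Kinases of the Src family differed among themselves. LYN was below background in SkBr3 (4.24) and at 629 in SkBr3/Lap, and FYN went from 106 to 2496. SRC itself was at 291 and 273, a log2 difference of -0.99, just under 2-fold. PTK6, a Src-related kinase of luminal epithelium, fell from 557 to 14.9. The insulin receptor substrates, adaptors that carry signals from IGF1R and INSR to PI3K, were higher, IRS2 from 29.4 to 2005 and IRS1 from 141 to 1096. In the list of FOXO and PI3K response genes that holds them, 5 of 18 were higher and 2 lower. Those 2 were TRIB2 at -2.83 and KLF9 at -2.09.

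Regulators of NF-κB were higher in SkBr3/Lap in 11 of 27 cases (40.7%) and lower in none, with a median log2 fold change of 0.78. Of the 22 that passed the signal filter on both arrays, 6 were higher and none lower. The other 5 passed through SkBr3/Lap alone, and all 5 were higher. After normexp correction with quantile normalization, 10 of the 27 were higher and 1 lower. Among the subunits, RELB, the partner of p52 in the non-canonical branch, went from 6209 to 46931 (2.02). NFKB1, which gives p50, was at 4547 and 13881, a difference of 0.71, and REL differed by -0.62, so neither reached 2-fold. RELA and NFKB2 had no named probe here and were not analysed. Of the kinases, MAP3K14 (NIK), which starts the non-canonical branch, went from 610.3 to 5905, and IKBKE from 123 to 658, while IKBKB, CHUK and IKBKG, the parts of the IKK complex, lay between -0.44 and 0.88.

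The inhibitors and ubiquitin enzymes that NF-κB itself induces made up much of the remainder. NFKBIA, the IκBα inhibitor, went from 28368 to 112350 (1.09). NFKBIE and NFKBIZ rose by 1.20 and 2.03. TNFAIP3 (A20), a ubiquitin-editing brake of the pathway, went from 58.2 to 1149.7, a log2 fold change of 3.41. BIRC3 (cIAP2), a ubiquitin ligase that protects from TNF-induced death, went from 68.5 to 2396 (4.23), the largest difference in the list. Its relative BIRC2 was at 1726 and 1606, just under 2-fold lower after scaling.

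Among cytokines and chemokines that NF-κB is known to induce, 11 of 29 with a probe reached a signal of 100, and of these 6 were higher and 2 lower. Only 5 of the 11 reached it on both arrays, 2 of them higher and 1 lower, while 5 passed through SkBr3/Lap alone. The median of the list, 2.81, was 0.59 over probes well above background on both arrays and 0.74 with no filter. CCL5, a T-cell attractant, was below background in SkBr3 (6.67) and at 4687 in SkBr3/Lap, at least 157-fold higher. IL6 was below background in SkBr3 (5.93) and at 1695 in the clone, at least 56.9-fold higher. IL23A went from 298 to 9504, IL32 from 39.3 to 1327, TNF from 224 to 2933 and LTB, a lymphotoxin subunit, from 28.5 to 371. CCL5 and IL6 were undetected and IL32 and LTB dim in the parental cells, while IL23A and TNF were above the signal filter there. The members that were lower were CX3CL1, fractalkine, from 8947 to 1032, and IL11, from 305 to 58.3. CCL2 and CXCL5 were bright enough to measure on both arrays and differed by 0.78 and 0.44. The other 18 cytokines and chemokines were under the signal filter. Of these, 7 were well above background in SkBr3/Lap alone, among them IL1B (3.71 and 69.7) and CXCL8 (4.5 and 73), and 1 in SkBr3 alone, CXCL1 (46.2 and 3.2). On both arrays 5 were well above background, and 5, such as CXCL6, on neither.

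Other NF-κB targets were divided, with 11 of 24 higher and 5 lower and a median of 0.74. Of the 12 that reached a signal of 100 on both arrays, 2 were higher and 2 lower, while 9 passed through SkBr3/Lap alone and 3 through SkBr3 alone. Another 11 were under the filter, with SELE, an adhesion molecule of endothelium, at 61.2 and 3.99, and PTGS2 not well above background on either array. ICAM1, a leukocyte adhesion molecule, went from 46.8 to 2781, and CD83, a surface marker of activated dendritic cells, from 83.7 to 3393. CFB and SAA1, acute-phase proteins of complement and inflammation, went from 58.5 to 1606 and from 99.6 to 2952, although the SAA1 probe may also bind the near-identical SAA2. SOD2, the mitochondrial superoxide dismutase, was already bright and went from 4683 to 31935. Against this, VEGFC, a lymphatic growth factor, fell from 822 to 17.1 and PLAU, the urokinase, from 913 to 52.2. F3, CD40 and TNFAIP2 were lower too, at log2 fold changes of -1.98, -1.91 and -1.01. The survival genes BCL2L1, BCL2A1, XIAP and CFLAR stayed under 2-fold, between -0.81 and 0.51. BIRC3 and TRAF1 are members of both this list and that of the regulators.

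**Figure D2:**
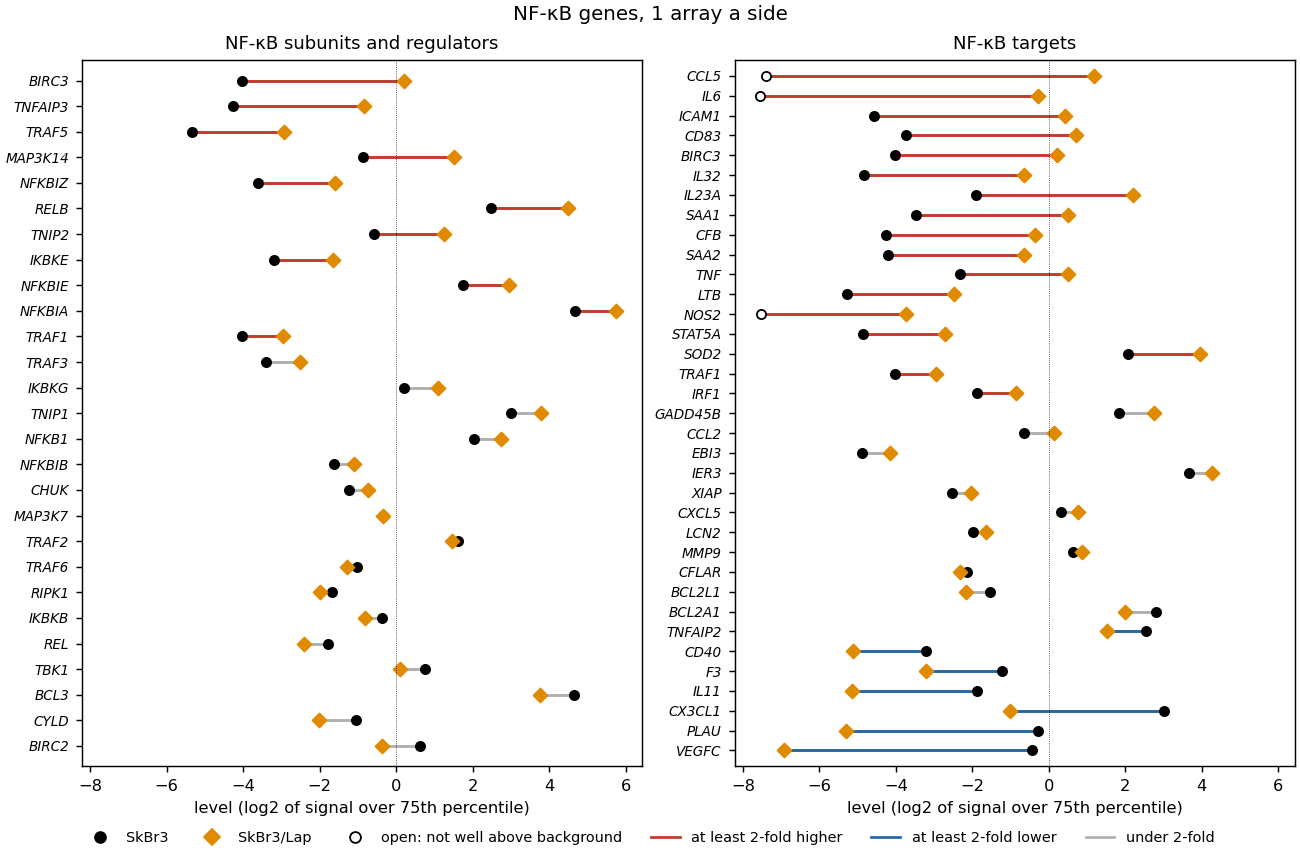
Levels of NF-κB subunits and regulators (left) and of NF-κB targets (right) in SkBr3 (black circles) and SkBr3/Lap (orange diamonds), as log2 of the signal over the array's 75th percentile, with red lines for genes at least 2-fold higher, blue for at least 2-fold lower and open symbols for signals not well above background. Of the 27 regulators 11 are red and none blue, and the targets range from CCL5 at the top to VEGFC at the bottom.

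The promoters of these genes were searched for a κB-type motif, GGG followed by any 2 bases and TTTCC, and for its reverse complement, GGAAA followed by any 2 bases and CCC, in RefSeq windows of 250 bases before to 50 after the start (GRCh38.p14). Windows with the motif are shown for 7 genes of the NF-κB lists that were higher in SkBr3/Lap and for NFKB1 and REL, which did not reach 2-fold, so that the letters can be set beside the values above. TRAF3 and CXCL5, also under 2-fold, held the motif too and are not shown. Capitals mark the motif, and each line reads 5′ to 3′ on the gene's strand.
IL6 (chr7:22727112-22727151, plus strand): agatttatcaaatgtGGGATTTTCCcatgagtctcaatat
NFKBIA (chr14:35404806-35404845, minus strand): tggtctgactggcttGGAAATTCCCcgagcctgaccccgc
TNFAIP3 (chr6:137867177-137867216, plus strand): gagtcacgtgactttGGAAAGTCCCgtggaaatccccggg
BIRC3 (chr11:102317270-102317309, plus strand): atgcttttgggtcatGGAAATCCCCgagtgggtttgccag
NFKBIZ (chr3:101827752-101827791, plus strand): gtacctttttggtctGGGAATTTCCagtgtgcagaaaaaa
LTB (chr6:31582487-31582526, minus strand): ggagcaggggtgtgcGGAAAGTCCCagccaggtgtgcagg
IL32 (chr16:3065289-3065328, plus strand): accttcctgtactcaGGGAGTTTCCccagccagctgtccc
NFKB1 (chr4:102501295-102501334, plus strand): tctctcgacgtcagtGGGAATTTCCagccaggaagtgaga
REL (chr2:60881513-60881552, plus strand): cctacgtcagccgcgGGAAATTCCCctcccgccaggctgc
The motif of IL6 began 73 bases before the start and that of NFKBIA 81 bases before it. TNFAIP3 held a further match, beginning 55 bases before its start, beside the one shown at 67. Of the 26 genes of the NF-κB lists that were higher, 20 had a window and 7 of them (35.0%) held the motif, against 4 of 28 (14.3%) of the other genes of these lists. Over all genes compared, 198 of 9218 windows (2.15%) held it. The share was 2.73% among all genes at least 2-fold higher, 1.62% among those lower and 2.13% among those under 2-fold. These are counts of letters in a short window, and the NF-κB lists hold genes known for such sites. Of the 7 higher list genes with the motif, IL6, LTB, IL32, TNFAIP3 and BIRC3 passed the signal filter through SkBr3/Lap alone. Their place among the higher genes rests partly on that filter, and the shares were not tested against each other.

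Interferon-stimulated genes were divided too, with 11 of 29 higher, 3 lower and a median of 0.48. Of the 18 that passed the signal filter on both arrays, 4 were higher and 1 lower. A further 9 passed through SkBr3/Lap alone, 7 of them higher, and 2 passed through SkBr3 alone and were lower. Over probes well above background on both arrays the median was 0.24. GBP1 and GBP2, guanylate-binding proteins of antimicrobial defence, went from 95.1 to 1965 and from 101 to 1814. PARP9 and DTX3L, which work as a pair, rose by 2.87 and 2.65, and IFITM1 rose by 2.17 to 17372. ISG15 and MX1, central genes of the response to interferon, were at log2 differences of -0.02 and 0.24, both under 2-fold. BST2 (tetherin), which holds budding viruses at the cell surface, fell from 753 to 77. Among genes of MHC class I and class II and their peptide loading, 10 of 18 were higher and 1 lower, with a median of 1.06. The immunoproteasome subunit PSMB9 went from 1640.3 to 23237, PSMB8 from 1922 to 13420 and the peptide pump TAP1 from 11202 to 71288. B2M, the class I light chain, was higher by 1.03, and HLA-C went from 4337 to 17284, while HLA-B differed by 0.73, under 2-fold. Probes of these class I genes may not tell them apart. The class II gene HLA-DMA was the member that fell, from 754 to 353.

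Many genes of the basal layer and of mesenchymal cells were higher in SkBr3/Lap, and several luminal factors were lower. Of 24 basal and mesenchymal genes, 19 were higher and 2 lower, with a median log2 fold change of 3.14. Of the 15 that reached a signal of 100 on both arrays, 10 were higher and 2 lower, and the other 9 passed through SkBr3/Lap alone. Over probes well above background on both arrays the median was 1.76. Another 11 genes of the list were under the filter, such as the transcription factors ZEB1 (3.47 and 2.8) and ZEB2 (4.3 and 3.31), not well above background on either array, and the cadherin CDH3 (17.8 and 24.4). The basal keratins KRT17, KRT16 and KRT5 were dim or undetected in SkBr3, at 39.4, 42 and 9.75, and stood at 3199, 3281 and 426 in the clone. KRT14 went from 45.2 to 1431 by its brighter probe (4.09) and by 0.86 on the log2 scale by another, so its size is uncertain. TP63, the transcription factor that defines basal epithelium, went from 17.9 to 432. CD44, a hyaluronan receptor, went from 124 to 19894, a log2 fold change of 6.43. The contractile genes ACTA2 and TAGLN went from 364 to 11714 and from 234 to 5513, and the caveolae genes CAV1 and CAV2 rose by 1.51 and 2.83. VIM, the main mesenchymal filament protein, was higher by 1.76 but remained dim, with 26.4 and 166. The members that fell were FN1, fibronectin, from 7582 to 3883, and S100A4, from 123673 to 79071.

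In the luminal list, 9 of 29 genes were lower and 2 higher, with a median of -0.45. SPDEF, FOXA1 and XBP1, transcription factors of luminal secretory cells, fell from 15517 to 386, from 21062 to 7249.9 and from 176157 to 51523. The secreted proteins AGR2, TFF3 and TFF1 were at log2 fold changes of -6.42, -6.96 and -2.28, and CRABP2, a carrier of retinoic acid, was at -4.87. The keratins of simple epithelium stayed under 2-fold, with log2 differences of -0.44 for KRT8, -0.12 for KRT18, -0.82 for KRT19 and 0.21 for KRT7. Other probes of KRT8 and KRT18 lay on the other side of 0, at 0.63 and 0.22. EPCAM and GATA3 differed by -0.14 and 0.96, also under 2-fold. MUC1 and PRLR were the members that were higher, at 1.17 and 1.56. Basal keratins and simple-epithelium keratins were therefore measured together in the clone, at levels that cannot be set against each other because each probe has its own response.

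**Figure D3:**
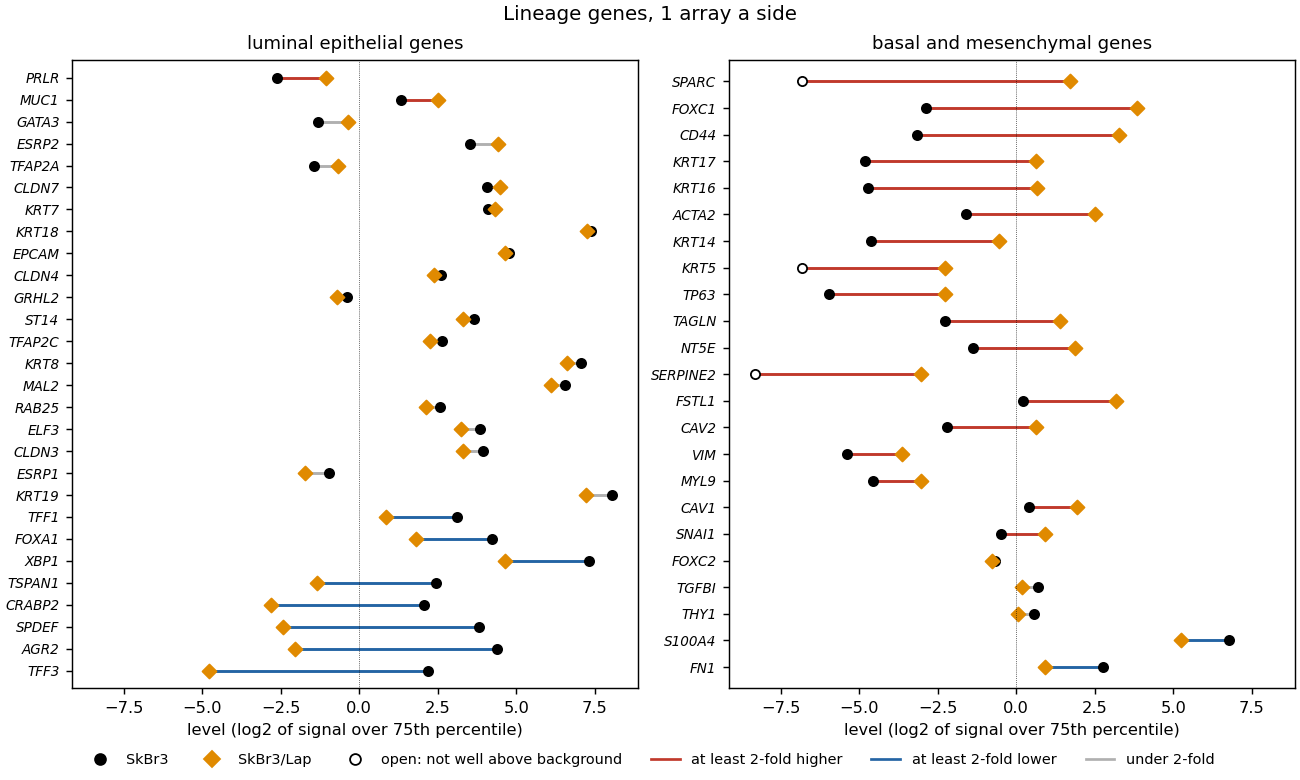
Levels of 28 luminal epithelial genes (left) and 23 basal and mesenchymal genes (right) in SkBr3 (black circles) and SkBr3/Lap (orange diamonds), as log2 of the signal over the array's 75th percentile, ordered by fold change. Of the basal and mesenchymal genes plotted 18 are red (at least 2-fold higher) and 2 blue (lower), and of the luminal genes plotted 8 are blue and 2 red, while the simple-epithelium keratins overlap.

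Matrix and adhesion genes followed with large single changes. Of 32 integrins, laminins and collagens, 15 were higher and 3 lower, with a median of 0.67. Of the 18 that reached a signal of 100 on both arrays 4 were higher and 2 lower, and over probes well above background on both the median was 0.27. ITGA6, the laminin-binding integrin of hemidesmosomes, was below background in SkBr3 (3.58) and at 4479 in the clone, and LAMC1 went from 25.3 to 11120. LAMB3, a chain of epidermal laminin, went from 4204 to 40789 and the basement membrane collagens COL4A1 and COL4A2 rose by 2.63 and 2.29. COL4A5, another chain of the same collagen type, fell from 1139.8 to 19. Among proteases and their inhibitors, 9 of 18 were higher, 5 of which passed through SkBr3/Lap alone. These included PLAUR, the urokinase receptor, from 247 to 11384, and ADAMTS1, ADAM12 and TIMP3 from below background to 3619.6, 1120.0 and 1183. PLAU, which encodes the urokinase itself, was the single member that was lower. CLDN1, a tight-junction claudin, went from 159.9 to 6963, whereas CLDN3, CLDN4 and CLDN7 stayed between -0.62 and 0.43.

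The S100 and annexin families show how far neighbours within a family differed. The log2 fold change was -13.29 for S100A6 and -1.54 for S100A4, and S100A14, S100A16 and S100A13 were between -0.92 and -0.73, under 2-fold. S100A7 (psoriasin), an epidermal inflammation protein, went from 145 to 9428, while S100A8 and S100A9, the calprotectin subunits, rose by 1.35 and 1.48. Among the annexins, membrane-binding proteins regulated by calcium, ANXA1 went from 326 to 29315 and ANXA3 from 1781 to 44796. ANXA6 fell from 5514 to 1799. In all, 7 of 22 members were higher and 3 lower.

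Genes that handle drugs changed in both directions. ABCG2 led the pumps with 69052 in SkBr3/Lap, and in the BT474 pair it went from 99.5 to 9092, a log2 fold change of 5.98 beside 8.55 in SkBr3. ABCB1 (P-glycoprotein) was below background in SkBr3 (3.96) and at 2038 in the clone, at least 68.4-fold higher. ABCC2 rose from 117 to 1999 and ABCC4 was at least 2-fold higher at a low signal of 113. ABCC11, ABCC6, ABCC5, ABCA3 and ABCA2 were lower, ABCC11 from 773 to below background. ABCC1 and ABCC3 differed by -0.92 and -0.77. Of 12 transporters 4 were thus higher and 5 lower, with a median of -0.84. Of the 7 that reached a signal of 100 on both arrays, 1 was higher and 3 lower. A further 3, ABCG2 among them, passed through SkBr3/Lap alone and were higher, and 2 passed through SkBr3 alone and were lower.

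Among P450s, aldehyde dehydrogenases and conjugating enzymes, 10 of 35 were higher and 13 lower. ALDH2 and ALDH1A3 fell, the latter from 6165 to 1389.5, and CYP2J2, an epoxygenase of arachidonic acid, from 4306 to 107. GSTP1, a glutathione transferase, fell from 574 to 33.6. CYP26A1 and CYP26B1, which break down retinoic acid, were below background in SkBr3 and at 979 and 1775 in the clone. UGT1A6 went from 471 to 11653, with the caution that the UGT1A genes share exons, and UGT8, which makes galactosylceramide, from 36.7 to 3665. CYP1A1 and CYP1B1, both known targets of the dioxin receptor, went in opposite directions, at 1.64 and -2.69. Of 27 genes of the NRF2 oxidative stress response, 6 were higher and 3 lower, with AKR1C3 at 3.85 and AKR1B10 at 2.54, while NQO1 and TXNRD1 stayed under 2-fold at -0.63 and 0.90.

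Genes of fatty acid synthesis and desaturation went in both directions. FASN, the fatty acid synthase, fell from 6633 to 2713, ME1, which supplies NADPH for it, from 3961 to 68.4, and THRSP, a regulator of lipogenesis, from 2589 to below background. SREBF1, the transcription factor that drives this set, was lower at a log2 fold change of -1.24 and SCD, the main stearoyl-CoA desaturase, at -1.04, with its other probes just under 2-fold. In contrast FADS1, FADS2 and FADS3, desaturases of polyunsaturated fatty acids encoded side by side, stood at 11.1, 81.4 and 167 in SkBr3 and at 6444, 6672 and 4273 in SkBr3/Lap. SCD5, another stearoyl-CoA desaturase, was below background in SkBr3 and at 5464 in the clone. The list of 18 held 5 higher and 7 lower genes. Cholesterol synthesis genes were mostly close on both arrays, with 22 of 26 under 2-fold. STARD4, a sterol carrier, was the largest of the 3 that rose, at 2.32. Glycolysis genes such as HK2 (0.25) and LDHA (0.05) were likewise under 2-fold. PFKFB3 was lower at -1.04 by its brightest probe, with -0.85 and -0.24 by its others. The list of 32 glycolysis and hypoxia genes held 3 that were higher, SLC2A3 (5.21), ADM (3.13) and EGLN3 (2.77). It held 5 that were lower, led by CA12 and NDRG1 (-2.85).

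Genes of cell division were at similar or somewhat higher levels. None of 38 S phase and mitosis genes was lower by 2-fold and 8 were higher, with a median of 0.36. The 8 were CDC45, CDC20, CDT1, GINS2, AURKB, MCM2, MCM5 and CCNA2, at 1.06 to 1.51, and MKI67 and TOP2A differed by 0.79 and -0.09. Among G1 regulators, CCND3 was higher by 1.58, while RB1, the retinoblastoma protein, fell from 4215 to 3163 (-1.31). Genes of the ATF4 stress response were higher in 5 of 26 cases and lower in none. STC2 rose from below background to 643 and VLDLR from 371 to 4296, whereas ATF4, ASNS and TRIB3 were at 0.03, -0.07 and -0.22. In the BCL2 family, PMAIP1 (NOXA), a killer protein that binds MCL1, went from 61.2 to 1463, and 14 of 17 members stayed under 2-fold, MCL1 (-0.08) among them. BCL2L11 (BIM), a killer protein, was at 0.35 by its brightest probe but between 1.09 and 1.39 by 3 dimmer ones, so its size is uncertain. CASP10 and CASP1 were below background in SkBr3 and at 1438 and 116 in the clone, while CASP8 differed by -0.14.

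Of 19 steroid hormone response genes, 6 were higher and 6 lower. PIP and AZGP1, secreted proteins induced by androgen, fell from 1846 to 34.5 and from 1363 to 138, and TSC22D3 (GILZ), induced by glucocorticoids, from 973 to below background. SGK1, a kinase also induced by glucocorticoids, went from 95.8 to 4291, and NR3C1, the glucocorticoid receptor, was higher by 1.20. In the TGF-β and BMP pathway, 7 of 25 genes were lower and 5 higher. TGFB3 fell from 7536 to 164, the BMP target ID1 from 34389 to 4158 and SMAD4, the shared signal carrier of the pathway, from 171 to 39.9. The receptors TGFBR2 and TGFBR3 rose by 1.49 and 3.61. Among Wnt genes, WNT5A was below background in the clone and WNT10A far higher, as given above, the secreted inhibitors WIF1 and DKK1 fell from 442 and 259.9 to below background, and DKK3 rose from below background to 2147. CTNNB1, β-catenin, differed by -0.80. JAG1, a Notch ligand, went from 170.3 to 2954, and HES5, a Notch target, from 235 to 76.6.

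**Figure D4:**
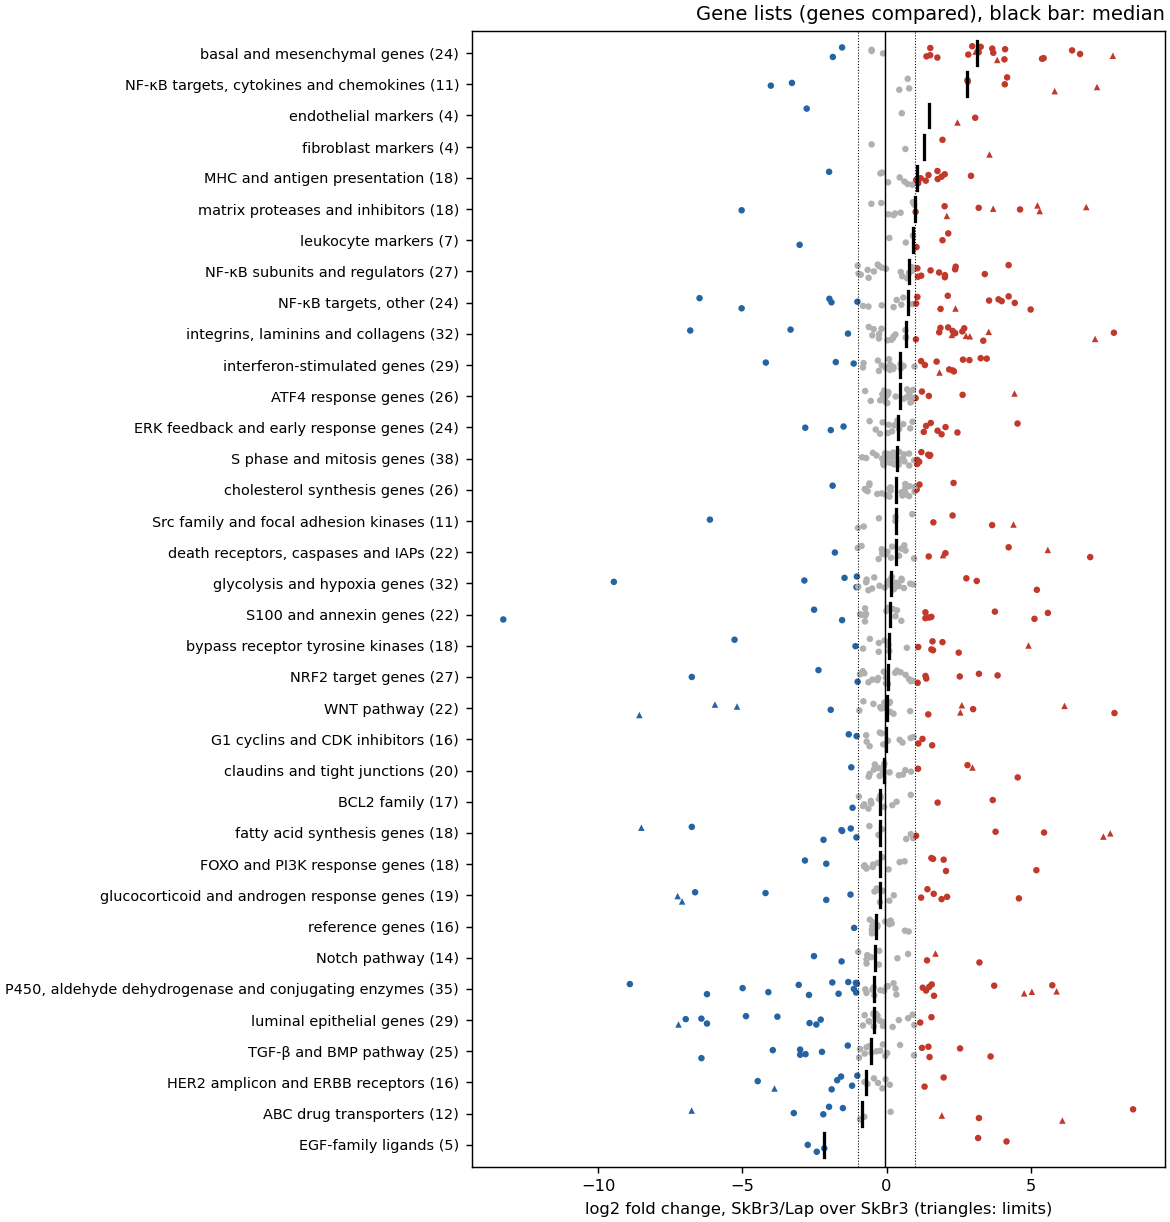
Log2 fold change of every gene compared in the gene lists (number of genes in brackets), with red for at least 2-fold higher in SkBr3/Lap, blue for at least 2-fold lower, grey for under 2-fold, triangles for limits and a black bar for the median of the list. The solid vertical line is the median of all genes (-0.04) and the dotted lines mark 2-fold. Basal and mesenchymal genes (3.14) and NF-κB cytokines (2.81) have the highest medians, and EGF-family ligands (-2.16) the lowest. Over probes well above background on both arrays these medians are 1.76, 0.59 and -1.66.

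Of 16 reference genes only GUSB was past 2-fold, lower, at -1.12, and the median of the list was -0.38 with the 75th percentile but 0.08 with quantile normalization. Markers of cells that a pure culture should lack were also read. Of 11 fibroblast markers with a probe, 3 were well above background in SkBr3 and 6 in SkBr3/Lap, and their summed level was 24.5 and 88.7 in units of the 75th percentile. Most of this sum was FBLN1, fibulin 1, with 25202 and 179935, while COL1A2, LUM, DCN, PDGFRA and POSTN were not well above background on either. COL3A1, PDGFRB and FAP were well above background in SkBr3/Lap alone, at 347, 64.8 and 35.4. For 12 leukocyte markers the sum was 11.8 and 45.7, made up mostly of CSF1R and LCP1, and PTPRC, CD3D, MS4A1, SPI1 and CD53 were not well above background on either array. Of 10 endothelial markers, 4 and 7 were well above background, with sums of 0.896 and 0.811. The part of such cells in the values above was not tested.

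Fold changes also followed position along the chromosomes, which was looked at after the values were seen and is given as a description in RefSeq gene order. On chromosome 4, 115 of 383 genes were higher and 40 lower, and most of the higher ones lay in its first part. From ZNF595, at the start of the chromosome, to AASDH, 74 of 137 genes were higher and 8 lower, with a median log2 fold change of 1.16. In the BT474 pair the median of 126 genes of the same stretch was -0.03, with 11 higher and 7 lower. ABCG2 lies on chromosome 4 outside this stretch, in a shorter run of 5 neighbours that were all higher, PKD2, ABCG2, PPM1K, HERC6 and HERC5. On chromosome 22, 33.1% of 284 genes were higher and 7.04% lower, with a median of 0.65. Between TANGO2 and BCR, 21 of 31 genes were higher, a run that includes SNAP29, CRKL and UBE2L3. In BT474 the median over 29 of these genes was -0.34 and none was higher.

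Chromosome 13 stood out in the other direction, with 34.7% of 193 genes lower and 8.81% higher and a median of -0.65. From MPHOSPH8 to RAP2A, 60 of 151 genes were lower and 12 higher, RB1 among the lower ones, while the median over 135 of them in BT474 was 0.07. On chromosome 18, from LAMA3 to PARD6G, 32 of 90 genes were lower and 10 higher, with SMAD4 within this stretch. By the rule given below there were 21 stretches, so the pattern was not confined to the chromosomes described. Other stretches were higher on chromosomes 6, 10, 16, 22 and X, and lower on 3, 5, 7, 8, 19 and 20. With median scaling the median over the chromosome 4 stretch was 1.32 and over the chromosome 13 stretch -0.54, and with quantile normalization 1.15 and -0.68. In all there were 39 runs of 4 to 9 neighbours past 2-fold in the same direction, 25 higher and 14 lower, and the few given here were picked because they hold genes named above or of one family. All of FADS1, FADS2 and FADS3 with RAB3IL1 were higher, as were TAP1, TAP2, PSMB8, PSMB9 and HLA-DOB, CASP1, CASP4, CASP5 and CARD18, TP63, P3H2, CLDN1 and IL1RAP, and MDFIC, TES, CAV2, CAV1 and MET. CYP4B1, CYP4Z2P, CYP4X1 and CYP4Z1 were all lower, and so were SCGB1D1, SCGB1D2, SCGB2A2 and ASRGL1. No DNA copy number was measured, and its part in these runs was not tested.

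**Figure D5:**
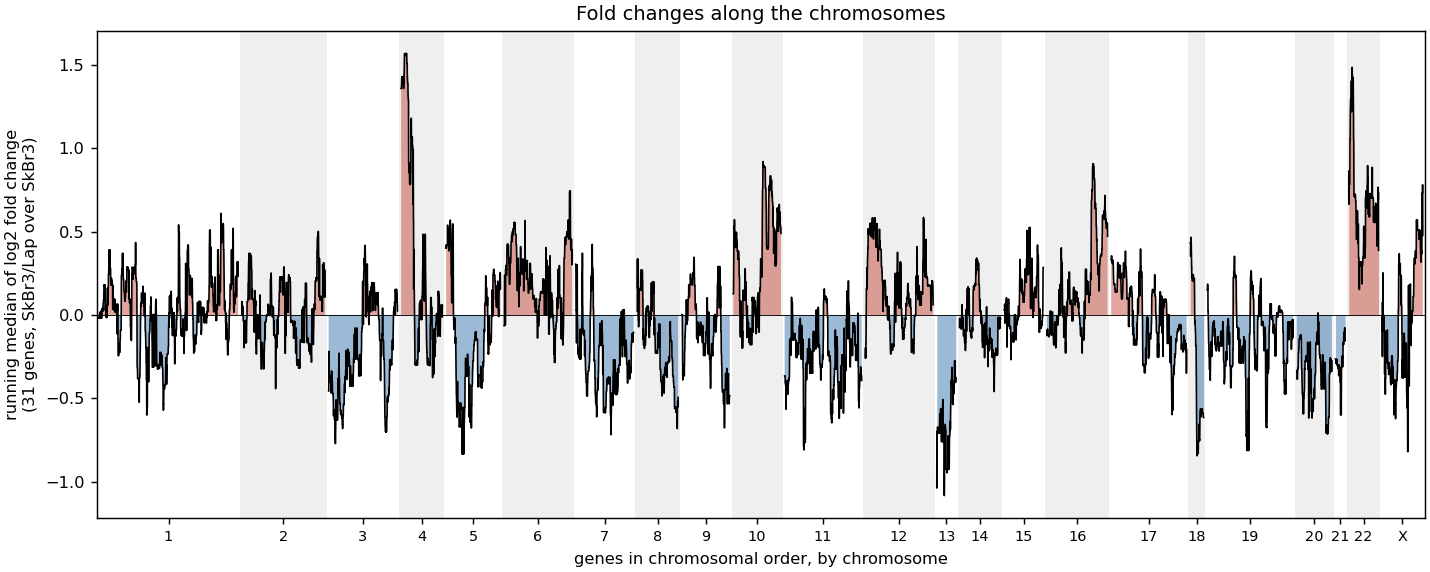
Running median of the log2 fold change over 31 neighbouring genes (y axis, SkBr3/Lap over SkBr3) with genes in chromosomal order from chromosome 1 to X (x axis), red where the median is above 0 and blue where it is below. The beginning of chromosome 4 and the beginning of chromosome 22 reach 1.57 and 1.48, and chromosome 13 lies below 0 along its length, down to -1.08.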

How the data were processed

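Total RNA of each sample had been hybridised to an Agilent 4 × 44 K human array. The authors deposited scanner files with the processed signal of each spot, an intensity on a linear scale after background subtraction, and a table of log2 values per probe, whose SkBr3 difference deviated from that of the processed signals, after a constant shift, by a median of 2.9e-07 and at most 0.62. Feature Extraction 10.1.1.1 and Cy3 alone are given in the file headers, but the published methods give an older version, Cy3 or Cy5 labelling and LOWESS. The files name an hg18 design.

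For each probe the mean log2 signal of its spots was taken, and the 75th percentile of the array over 41000 probes was subtracted from it. Probes with a signal of at least 100 on either array were kept, 23539 in all, 22778 of them well above background on both arrays (at least 50% of their spots so marked), 628 in SkBr3/Lap only and 133 in SkBr3 only. RefSeq accessions named 23680 of 41000 probes through GRCh38.p14, and a gene was read from its probe with the highest mean log2 signal over both arrays. A call was a change of at least 2-fold, with no test, since each group had 1 array. Depth does not apply to arrays, and their number limits the precision.

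The genes named are the 15 largest measured rises and falls, the 10 largest limits each way and members of 37 lists. The comparison and the lists were chosen with earlier results of these data known, and the chromosome stretches, the other neighbour runs and the promoter motif after the values were seen. A stretch is where the running median over 31 genes stayed at 0.5 or more, or -0.5 or less, over at least 50 genes. Genes of the Y chromosome, 7 in number, and some other members of these sets are not reported here. Alternatives were other scalings, quantile normalization, normexp (offset 50), the deposited log2 table, 16 added to the signal, other filters, outlier spots left out, measured values in place of limits, 3-fold, and the mean over probes. Python 3.11.15, numpy 2.4.6, pandas 2.3.3, R 4.3.3 and limma 3.58.1 were used, and the scripts were tested on simulated arrays.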

Additional observations from a re-analysis of the deposited data

Results flagged for a closer look

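A few of the genes with the largest changes in SkBr3/Lap went the opposite way in the resistant BT474 clone, and with 1 array a side these differences between the lines were not tested. SPON2 and GAL, both higher in SkBr3/Lap, were at log2 fold changes of -1.32 and -1.83 in the BT474 pair. CA12, KRT4 and THRSP, all lower in SkBr3/Lap, were at 1.63, 1.25 and 1.59 there. PGM5, which was at -6.86 in the SkBr3 pair, was at 5.20 in the BT474 pair, the widest such gap among these genes.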

How the results depend on the processing

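No paired analysis was possible because each group has 1 sample. None of the named genes that an alternative could read changed direction, which were all 341 in 10 alternatives, 339 with outlier spots left out and 285 with probes well above background on both arrays. The number that came under 2-fold was 41 with normexp and quantile normalization, 14 with median scaling, 8 with quantile normalization, 7 with 16 added, 6 with the percentile over probes well above background and 2 with the mean over probes. The sizes of the fold changes depended more on the processing. Of the 341 genes, 190 moved out of the range between probes with normexp and quantile normalization, and 122 with 16 added. With measured values in place of limits 47 did so, with the mean over probes 33 and with quantile normalization 2. A 3-fold threshold left 1825 probes higher and 1456 lower. Keeping probes well above background on both arrays gave 2503 higher and 3930 lower, and it turned the median of the endothelial markers from 1.48 to -0.10, since the filter changes which probes are read. The same filter moved the medians of NF-κB cytokines from 2.81 to 0.59, of basal and mesenchymal genes from 3.14 to 1.76, of integrins, laminins and collagens from 0.67 to 0.27 and of matrix proteases from 0.98 to 0.49, and with no filter that of the EGF-family ligands moved from -2.16 to -1.16. The medians of G1 regulators, Wnt genes and tight-junction genes, all near 0, also changed sign with scaling or filter. Of the 3095 higher and 3129 lower probes, 3036 and 2838 were called the same way after quantile normalization. Signals near background limit the precision of the dim genes. Their fold changes are limits only where 1 array was not well above background. Others are measured values that rest on a dim signal, such as CTNND2 at 16.8 in SkBr3/Lap and MOXD1 at 22.7 in SkBr3.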
